A study of Mus musculus with 6 samples.

Results

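Glutamate receptor subunits and the scaffold proteins that hold them at the synapse were examined probe by probe in mouse prefrontal cortex. The 35 genes were AMPA, kainate, NMDA, delta and metabotropic receptor genes and the Dlg, Dlgap, Shank and Homer scaffolds. Members were the non-control probes that the array design assigns to one of these symbols, 75 probes of 41174 on the array, for 35 of 27373 gene names. By group these were 12 AMPA probes (4 genes), 8 kainate probes (5 genes), 13 NMDA probes (6 genes), 2 delta probes (1 gene), 13 metabotropic probes (6 genes) and 27 scaffold probes (13 genes). BTBR mice (BTBR T+ Itpr3tf/J, 3 animals) were compared with wild-type C57BL/6J mice (3 animals), all of them male, 5 months old and given no drug. BTBR mice lack the corpus callosum and interact little with other mice, and the strain serves as a model of autism. The question was how its cortical expression profile differs from that of the common C57BL/6J strain. The strain differs from C57BL/6J across its whole genome, and the labels of the BTBR animals also carry C57BL/6J in their background field. Total RNA of the dissected whole prefrontal cortex was labelled with Cy3 and hybridised to 1 array of 60-base probes per mouse.

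Glutamate is the main excitatory transmitter of the cortex. AMPA receptors carry the fast current at most synapses, NMDA receptors admit calcium when presynaptic release and postsynaptic depolarisation coincide, and kainate receptors act on both sides of the synapse. Metabotropic receptors signal through G proteins, and the Dlg, Dlgap, Shank and Homer proteins form a layered scaffold under the membrane that ties the receptors to each other and to the cytoskeleton.

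A probe reads 60 bases of a transcript, and related subunits can share a signal where their transcripts are alike over those bases. Probes were compared only with each other, not with the transcripts of other members, so shared signal was not tested. Among 2415 pairs of measured member probes, the closest was that of Gria1 (probe A_51_P498031, mm9 chr11:57102930-57102989, plus strand) and Gria3 (probe A_52_P179309, mm9 chrX:39007367-39007426, plus strand). The 2 sequences are printed to show how far the closest 2 probes differ. Capitals mark the bases that differ between them when bases 5 to 60 of the Gria1 probe are laid on bases 1 to 56 of the Gria3 probe.
Gria1 A_51_P498031: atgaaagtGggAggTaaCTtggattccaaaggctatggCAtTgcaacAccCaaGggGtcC
Gria3 A_52_P179309: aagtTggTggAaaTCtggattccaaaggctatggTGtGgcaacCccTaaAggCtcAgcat
The pair matched at 43 of 56 aligned bases (76.8%) and differed at 13, and no other pair reached 70%. The median pair matched at 39.2%. The last sequence belongs to Grm2, the gene whose probes differed most from one another in their strain difference. It is probe A_52_P342888 (mm9 chr9:106553374-106553433, minus strand), in which no base is marked.
Grm2 A_52_P342888: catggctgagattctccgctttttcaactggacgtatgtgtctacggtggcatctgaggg
All 75 probes lay on the chromosome of their gene in the RefSeq table, and 61 of 61 probes with a listed accession had the same symbol there. Probes crossing an intron numbered 9. A Grm2 probe (A_51_P414219) lay on the strand opposite to its gene.

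Between 28101 and 29951 probes were well above background on the BTBR arrays, and between 29977 and 30665 on the C57BL/6J arrays. The 75th percentile of signal lay between 877 and 1201 on the BTBR arrays and between 1236 and 1634 on the C57BL/6J arrays. Each level given here is a log2 signal minus that of its array's percentile, and levels are not comparable between probes. Excitatory neuron markers were present, with 8 of 8 genes measured and a median difference of 0.25 on the log2 scale with 0 of 13 probes past the test. Their median deviation was 0.19, -0.093 and 0.24 in the BTBR mice and 0.080, 0.19 and -0.57 in the C57BL/6J mice, lowest in C57BL/6J replicate 3. Over all probes, 3.27% passed the test as lower in BTBR and 2.18% as higher. Oligodendrocyte markers had a median of -0.72, with 5 of 16 probes past the test and lower in BTBR. Of the pan-neuronal markers, 3 of 17 probes passed as lower in BTBR, and these belonged to Nefl and Syt1. Of the astrocyte markers 1 of 16 probes, for Gfap, passed as lower, and of the microglial markers 1 of 11 passed as higher and 1 as lower. In a tissue of mixed cells, fewer cells of a type and less RNA per cell cannot be told apart. Striatal projection neuron markers set C57BL/6J replicate 3 apart: the median deviation of 17 probes (12 genes) from their means was -1.0, 0.60 and -1.38 in the BTBR mice and -0.80, -0.22 and 2.58 in the C57BL/6J mice, so this mouse stood highest and BTBR replicate 2 next. Choroid plexus markers (5 probes of 3 genes, with Ttr not well above background on enough arrays) set C57BL/6J replicate 1 apart, with median deviations of -0.95, -0.47 and 0.46 in the BTBR mice and 2.52, -1.58 and -0.40 in the C57BL/6J mice. The arrays came from 2 slides, with replicates 1 and 2 of each strain on slide 1 and replicate 3 of each on slide 2.

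Receptor and scaffold transcripts were measured broadly, and no strain difference among them passed the test. Of the 75 probes, 70 exceeded background clearly on each of the 6 arrays and entered the fit, and each of the 35 genes kept at least 1 probe. On no array did the other 5 probes rise well above background. These were 2 Grin3a probes (A_51_P146837 and A_52_P915216), 1 Dlg2 probe (A_52_P236484), 1 Dlgap1 probe (A_52_P444618) and the opposite-strand Grm2 probe. No member probe (0 of 70) passed the strain test at an adjusted p of 0.05, whereas 5.45% of all probes did (1635 of 30011, 655 or 2.18% higher and 980 or 3.27% lower in BTBR; limma, Benjamini-Hochberg over all probes). At an unadjusted p under 0.05 there were 6 member probes (8.57%), against 16.7% of all probes. The smallest adjusted p among members was 0.0632, for Grm3. Leaving out BTBR replicate 1, C57BL/6J replicate 1 or C57BL/6J replicate 2 lowered the count over all probes to 859, 962 and 894.

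On the processed signal, the intervals also bounded the size of the differences. They carry the variation between mice and not the choice of background correction. At Gria2 probe A_52_P891243, for example, the interval ran from -0.25 to 0.26, and an alternative correction (normexp) gave -0.30. Log2 fold changes ran between -0.91 and 0.68, and the 95% interval lay inside a 2-fold difference for 63 of 70 member probes (90.0%), against 80.9% of all probes. Inside a 1.5-fold difference lay 35 of 70 intervals, against 15167 of 30011 over all probes, so smaller changes remained possible for the other 35. Regardless of sign, the median log2 difference was 0.183 for the members and 0.165 for all probes, so the members' differences were not smaller than usual. The 3 BTBR values did not overlap the 3 C57BL/6J values at 7 member probes (10%, 4 higher and 3 lower), against 22.9% of all probes (11.9% higher and 11% lower). The 7 were Gria3 A_52_P68221, Gria4 A_51_P501735, Gria4 A_52_P153588 and Dlg2 A_51_P297185 on the higher side, and Grm3 A_51_P486543, Dlgap3 A_52_P138806 and Shank2 A_52_P548470 on the lower side. With 3 mice against 3, an exact two-sided permutation test on a single probe cannot give a p below 0.1.

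**Figure D1:**
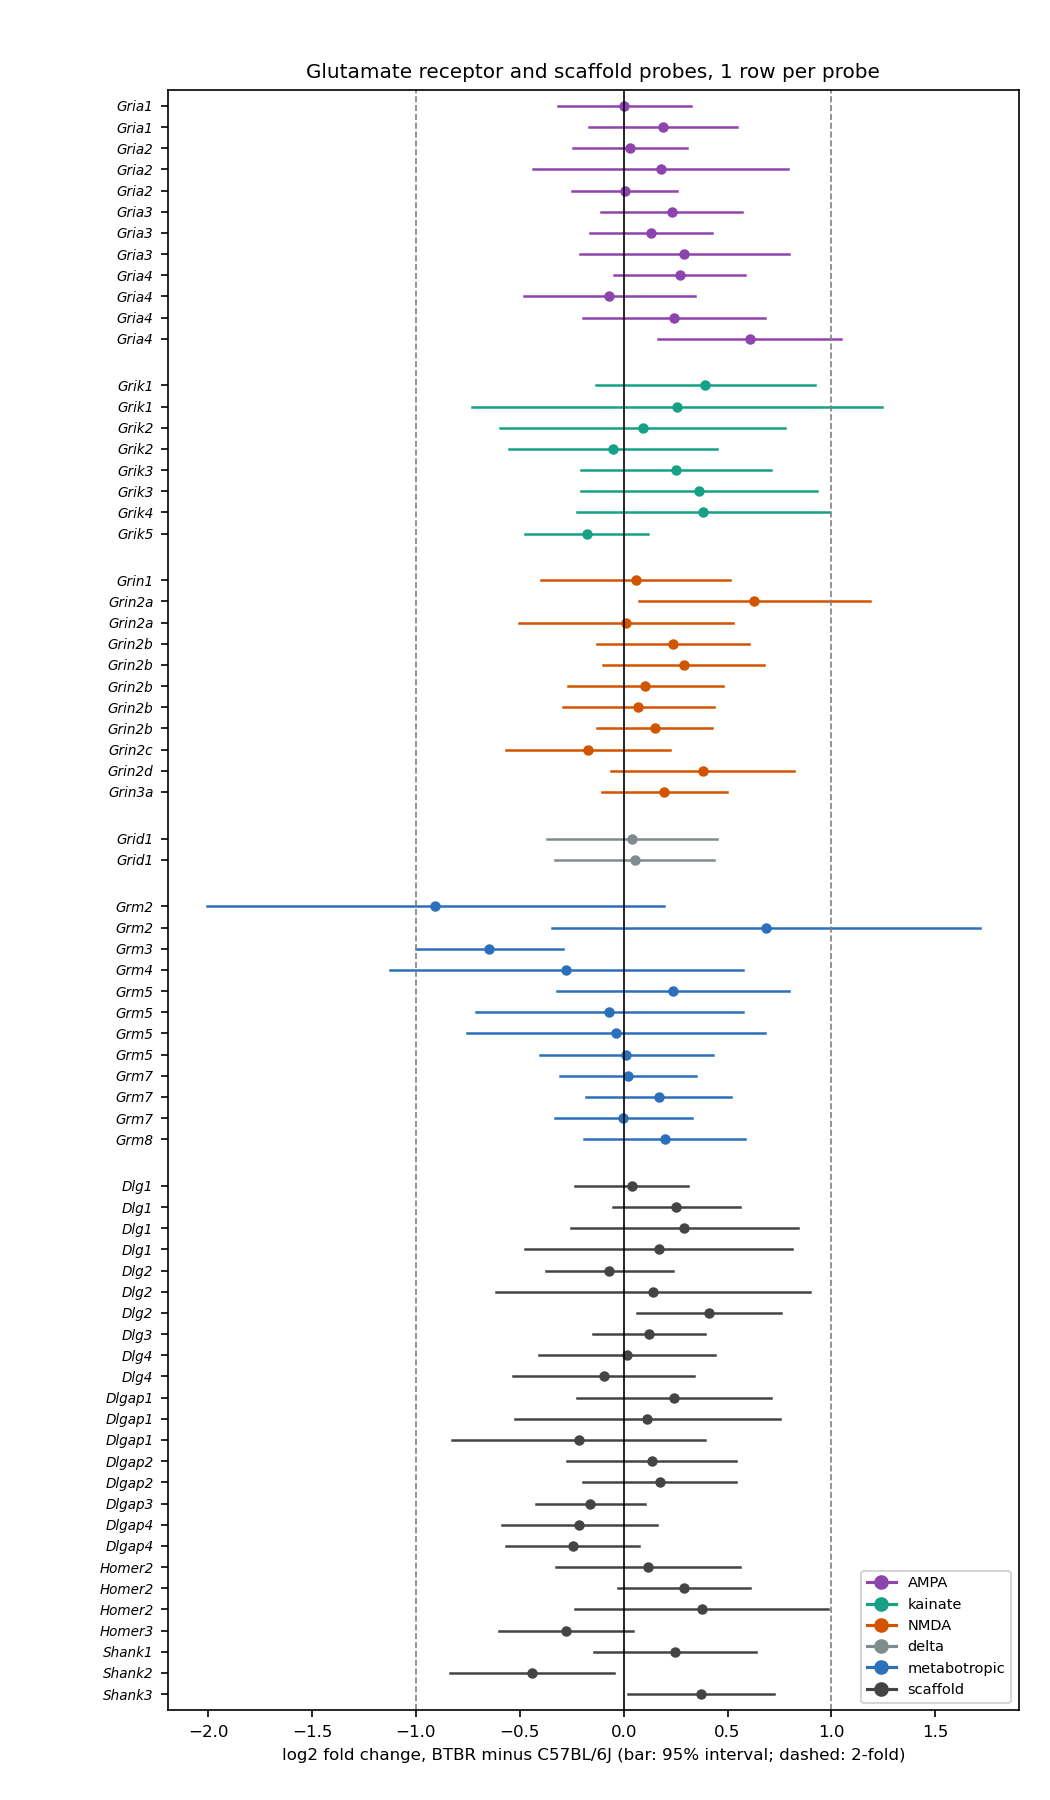
Log2 fold change of each of the 70 measured member probes, BTBR minus C57BL/6J (horizontal axis), with its 95% interval as a bar and 1 row per probe, coloured by group. Most intervals cross 0 and stay inside the dashed 2-fold lines, and the widest intervals belong to the 2 Grm2 probes, which lie on opposite sides of 0.

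The mean was higher in BTBR at 52 of 70 member probes (74.3%), against 57% of all probes, and the median log2 fold change was 0.13, against 0.037 over all probes. This direction depended on the background correction. With normexp correction 34 of 70 member means were higher (48.6%), against 36.4% of all probes, and the medians were -0.018 for the members and -0.093 for all probes. Taken by slide, the member median was 0.14 on slide 1 and -0.024 on slide 2. In all, 34 of 70 member probes had the same sign in both slides, against 15344 of 30011 over all probes. Slide 2 held only replicate 3 of each strain. BTBR replicate 2 gave the highest value at 22 member probes (31.4%, against 24.4% of all probes), and C57BL/6J replicate 3 gave the lowest at 23 (32.9%, against 23.8%). The excitatory marker deviation of C57BL/6J replicate 3 was -0.57 and its striatal deviation 2.58, and their part in these counts was not tested.

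**Figure D2:**
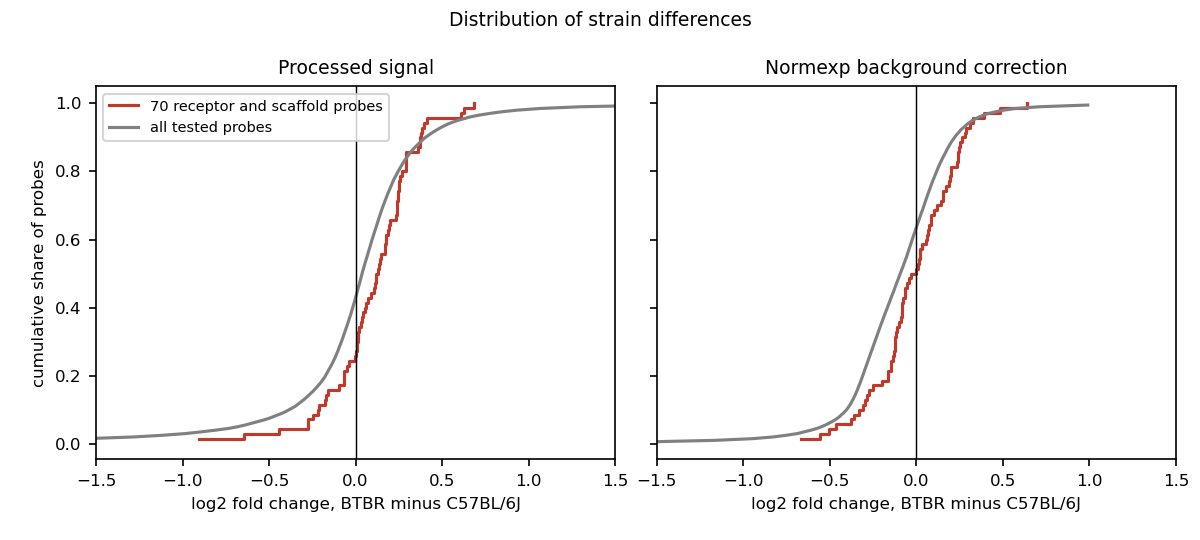
Cumulative share of probes (vertical axis) by log2 fold change, BTBR minus C57BL/6J (horizontal axis), for the 70 member probes and for all tested probes, from the processed signal on the left and after normexp background correction on the right. The member curve lies to the right of the curve of all probes in both panels near 0, and both curves sit further left after normexp correction, where the member median is -0.018.

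Several probes read the same gene in 20 cases. In 12 of these genes every probe had the same sign, the median range between probes of a gene was 0.18 on the log2 scale, and 1 gene, Grm2, had probes differing by 1 or more. The remaining 15 genes rested on 1 probe each.

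AMPA receptor subunits gave no probe past the test (0 of 12, 1 at an unadjusted p under 0.05). The 95% interval lay inside a 2-fold difference at 11 of the 12 probes and inside 1.5-fold at 8. The median log2 fold change was 0.18, and 11 of 12 means were higher in BTBR (8 of 12 after normexp correction). Gria2, whose edited subunit makes AMPA receptors impermeable to calcium, was read by its brightest probe (A_52_P575176) at 5.08, 5.34 and 5.17 in BTBR mice, against 5.24, 5.16 and 5.10 in C57BL/6J mice. Its ranges overlapped, and the difference was 0.031 ± 0.114 (SE; 95% interval -0.24 to 0.31; limma adjusted p = 0.942). Gria1, the subunit recruited to synapses in potentiation, stood at 3.42, 3.68 and 3.36 in BTBR mice and at 3.44, 3.39 and 3.63 in C57BL/6J mice (probe A_52_P39575). These values also overlapped, with a difference of 0.0022 ± 0.133 (SE; interval -0.32 to 0.32; adjusted p = 0.997). Both intervals exclude a change of 1.5-fold in either direction.

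The Gria1 and Gria3 probes printed above differed between the strains by 0.19 and 0.13, with adjusted p-values of 0.631 and 0.693. Gria3, an X-linked subunit, was measured at 2.51, 2.43 and 2.52 in BTBR mice and at 2.42, 2.36 and 1.99 in C57BL/6J mice by probe A_52_P68221, without overlap, and the difference of 0.23 did not pass (adjusted p = 0.510). The separation was narrow, 2.43 against 2.42 at its closest.

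Gria4, a subunit with fast kinetics, had 4 probes whose differences ranged between -0.070 and 0.61. The upper value came from probe A_52_P153588 (mm9 chr9:4663303-4663362, minus strand), which read -3.70, -3.49 and -3.94 in BTBR mice and -4.02, -4.41 and -4.53 in C57BL/6J mice. The groups did not overlap, but the difference of 0.61 ± 0.18 (SE; 95% interval 0.17 to 1.05) did not pass, with an adjusted p of 0.147, the second smallest among member probes. With normexp correction it was -0.0022. The other 3 Gria4 probes differed by 0.27, 0.24 and -0.070, so the larger value was not shared by the rest of the gene's probes.

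Kainate receptor subunits gave no probe past the test (0 of 8, also 0 at an unadjusted p under 0.05). The median difference was 0.25 and 6 of 8 means were higher in BTBR, but 1 of 8 was higher after normexp correction. Within slides the medians were 0.49 on slide 1 and -0.29 on slide 2, of opposite sign. Grik5, an auxiliary high-affinity subunit that needs a partner of the Grik1 to Grik3 type, read 2.99, 2.81 and 2.80 in BTBR mice and 2.89, 3.17 and 3.06 in C57BL/6J mice (A_51_P428754). The ranges shared only the stretch between 2.89 and 2.99, and the difference was -0.18 ± 0.12 (SE; interval -0.47 to 0.12; adjusted p = 0.565). Grik4, the other high-affinity subunit, read 2.59, 2.49 and 2.0 in BTBR mice and 2.10, 2.32 and 1.52 in C57BL/6J mice, a difference of 0.38 ± 0.25 (SE; interval -0.22 to 0.99; adjusted p = 0.546). Its lowest value was that of C57BL/6J replicate 3.

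The remaining kainate receptor genes, which can form channels without those 2 subunits, did not pass either. Grik1 probes differed by 0.39 and 0.26, Grik2 probes by 0.091 and -0.052, and Grik3 probes by 0.25 and 0.36. Grik2 illustrates the split between slides: probe A_52_P270135 read -1.33, -1.07 and -1.69 in BTBR mice and -1.78, -1.72 and -0.87 in C57BL/6J mice, which gave 0.55 within slide 1 and -0.82 on slide 2. Its highest value was that of C57BL/6J replicate 3, the library with the highest striatal markers (median deviation 2.58), and the part of those markers in the result was not tested.

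NMDA receptor subunits likewise held no probe past the test (0 of 11, 1 at an unadjusted p under 0.05). The median difference was 0.15, with 10 of 11 means higher in BTBR and 7 of 11 after normexp correction. Within slides the medians were 0.26 on slide 1 and -0.034 on slide 2. The same sign in both was kept by 3 of 11 probes, against 15344 of 30011 over all probes. Grin1, the glycine-binding subunit present in every NMDA receptor, read 0.22, -0.14 and 0.57 in BTBR mice and 0.15, 0.26 and 0.07 in C57BL/6J mice. The BTBR values enclosed the C57BL/6J values, and the difference was 0.057 ± 0.190 (SE; interval -0.40 to 0.51; adjusted p = 0.934). Grin2b, the glutamate-binding subunit that dominates early in development and remains in adult cortex, had 5 probes, all between 0.071 and 0.29. The brightest of them (A_51_P229869) stood at 2.84, 3.08 and 2.57 in BTBR mice and at 2.57, 2.54 and 2.67 in C57BL/6J mice, a difference of 0.24 ± 0.15 (SE; interval -0.13 to 0.60; adjusted p = 0.528).

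Grin2a, the subunit that joins NMDA receptors as the cortex matures, differed between its probes. Probe A_52_P62744 read 0.96, 1.29 and 0.46 in BTBR mice and 0.52, 0.12 and 0.18 in C57BL/6J mice, so BTBR replicate 3 lay inside the C57BL/6J range. The difference of 0.63 ± 0.23 (SE; 95% interval 0.07 to 1.19) did not pass (adjusted p = 0.237), and this probe was chosen for description after its values were seen. The second Grin2a probe (A_51_P460570) differed by 0.011 ± 0.214 (SE; adjusted p = 0.991). In the mm9 positions of the files the first probe lies at chr16:9991772-9991831 and the second at chr16:9577909-9577968, both on the minus strand, and the files assign the first to an Ensembl transcript and the second to the RefSeq transcript of the gene.

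Grin2c, best known from cerebellar granule cells, read 2.54, 2.57 and 2.40 in BTBR mice and 2.44, 2.60 and 2.99 in C57BL/6J mice, a difference of -0.17 ± 0.16 (SE; interval -0.57 to 0.22; adjusted p = 0.701). Its highest value was again that of C57BL/6J replicate 3. Grin2d differed by 0.38 (adjusted p = 0.378). Grin3a, a glycine-binding subunit that lowers calcium entry, differed by 0.20 (adjusted p = 0.533). Grid1, a delta receptor that binds cerebellins rather than opening to glutamate, had differences of 0.040 and 0.053 at its 2 probes, neither past the test, with intervals inside 1.5-fold. The brighter probe read -1.83, -1.73 and -1.62 in BTBR mice and -1.92, -1.95 and -1.42 in C57BL/6J mice, and the C57BL/6J values enclosed those of BTBR.

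Metabotropic receptors held both the smallest adjusted p and the widest intervals among the members. None of 12 probes passed (1 at an unadjusted p under 0.05), the median was 0.0056 (0.13 on slide 1 and -0.26 on slide 2) and 6 of 12 means were higher in BTBR. Grm3, a Gi-coupled group II receptor found on neurons and astrocytes, read 0.50, 0.27 and 0.37 in BTBR mice and 1.09, 1.21 and 0.77 in C57BL/6J mice (probe A_51_P486543, mm9 chr5:9485369-9485428, minus strand). Every BTBR value lay below every C57BL/6J value. The means were 0.38 ± 0.11 in BTBR mice and 1.02 ± 0.23 in C57BL/6J mice (SD, n = 3 each), a log2 fold change of -0.65 ± 0.15 (SE; 95% interval -1.0 to -0.29), or 1.56-fold lower. Its adjusted p of 0.0632 (limma) stood just above the threshold of 0.05.

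The Grm3 difference had the same sign in both slides, -0.77 within slide 1 and -0.40 on slide 2, and was -0.56 with normexp correction. Its adjusted p ranged between 0.0197 and 0.414 over 21 alternative settings, and 4 of these put it past the threshold. Those were the authors' deposited values (where 5.48% of all probes passed), a trended and robust prior (6.08%), array weights (7.85%) and leaving out C57BL/6J replicate 3 (4.65%), without which it was -0.77 with an adjusted p of 0.0316. Grm3 has 1 probe here, so no second probe could be set beside it. Markers of astrocytes, a cell type that carries the receptor, had a median difference of -0.083 over 16 probes. Of these, 1 probe, for Gfap, passed the test as lower in BTBR (-1.22, limma adjusted p = 0.0146), against 3.27% of all probes. The log2 of the summed signal of the 16 astrocyte probes (7 genes) lay between 7.40 and 7.49 in the BTBR mice and between 7.48 and 7.71 in the C57BL/6J mice. Most of that sum came from 1 Aldoc probe (A_51_P220681), at 7.02 to 7.13 in the BTBR mice and 7.08 to 7.36 in the C57BL/6J mice. Oligodendrocyte markers had a median difference of -0.72, with 5 of 16 probes past the test and lower in BTBR. The part of the astrocyte and oligodendrocyte markers in the Grm3 result was not tested.

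Grm2, the other group II receptor and mainly presynaptic, gave opposite signs at its 2 measured probes. Probe A_51_P494725 (mm9 chr9:106545437-106545496, minus strand) read -3.97, -4.22 and -3.91 in BTBR mice and -2.48, -2.64 and -4.25 in C57BL/6J mice. C57BL/6J replicate 3 was far below the other two and below all BTBR mice. The difference was -0.91 ± 0.46 (SE; interval -2.01 to 0.19; adjusted p = 0.404).

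The Grm2 probe printed above, A_52_P342888, read -3.49, -3.70 and -3.16 in BTBR mice and -3.37, -3.92 and -5.10 in C57BL/6J mice. C57BL/6J replicate 3 was again the lowest, and the difference was 0.68 ± 0.43 (SE; interval -0.35 to 1.71; adjusted p = 0.520). Without C57BL/6J replicate 3 the first probe passed, at -1.47 with an adjusted p of 0.00698, and without that mouse and BTBR replicate 2 it stood at -1.38 with an adjusted p of 0.0144 (3.43% of all probes passed). Within slide 1 the probes differed by -1.53 and 0.053, and on slide 2 by 0.34 and 1.94. At slide 1 alone, 2 mice against 2, the first probe had an adjusted p of 0.0102, where 5.96% of all probes passed.

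**Figure D3:**
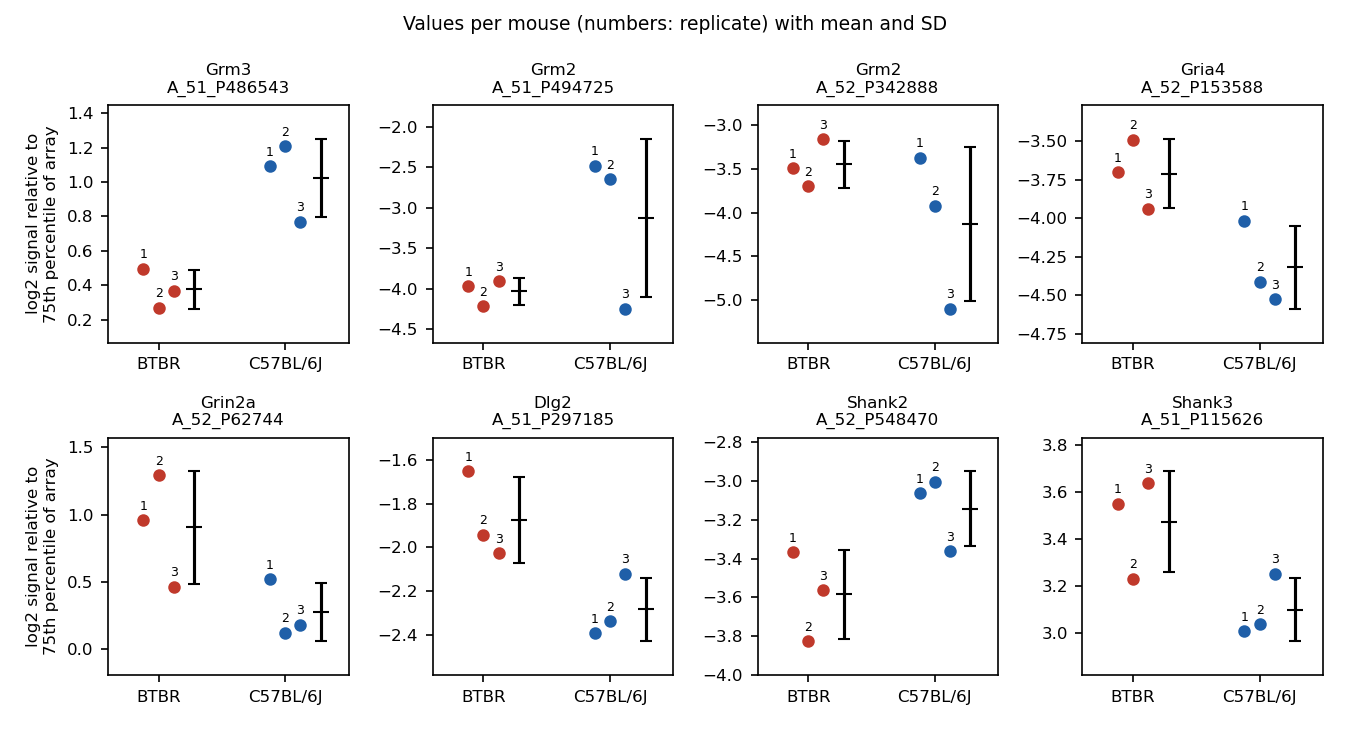
Log2 signal relative to the 75th percentile of the array (vertical axis, its range set per panel) for 8 member probes in each mouse, BTBR left and C57BL/6J right, numbered by replicate, with the mean and SD of 3 mice beside the points. Grm3, Gria4, Dlg2 and Shank2 do not overlap between the strains, and C57BL/6J replicate 3 lies below the other C57BL/6J mice at both Grm2 probes.

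Among the remaining metabotropic receptors, Grm5, a Gq-coupled postsynaptic receptor that Homer proteins bind, had 4 probes between -0.069 and 0.24. Its brightest probe (A_51_P465591) stood at 3.25, 3.47 and 2.99 in BTBR mice and at 2.81, 2.72 and 3.46 in C57BL/6J mice, a difference of 0.24 ± 0.23 (SE; interval -0.32 to 0.80; adjusted p = 0.711). The sign turned between slides, with 0.59 within slide 1 and -0.47 on slide 2. Grm4, a presynaptic group III receptor described after its values were seen, read -4.06, -3.63 and -3.85 in BTBR mice and -4.10, -3.85 and -2.75 in C57BL/6J mice, a difference of -0.28 (interval -1.13 to 0.57; adjusted p = 0.790). Its value in C57BL/6J replicate 3 stood above the other 5. The group III receptors Grm7 (3 probes, -0.0022 to 0.17) and Grm8 (0.20) did not pass either.

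**Figure D4:**
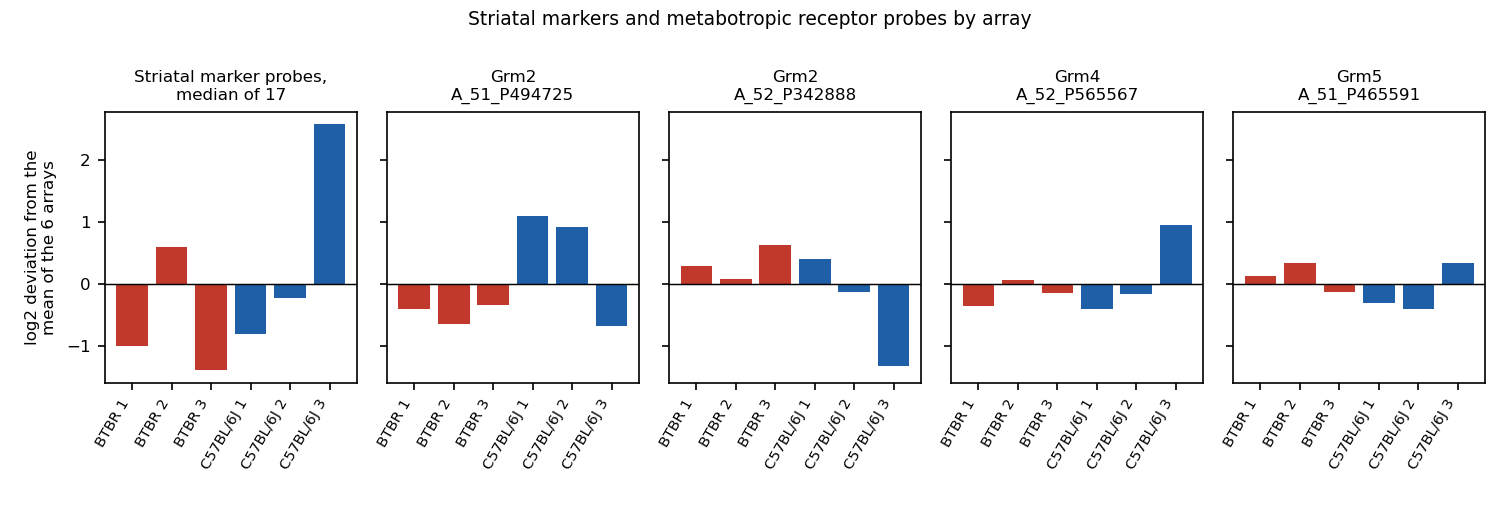
Log2 deviation of each array from the mean of the 6 arrays (vertical axis), BTBR left and C57BL/6J right in each panel, for the median of the 17 striatal marker probes and for 4 metabotropic receptor probes. C57BL/6J replicate 3 has the highest striatal median (2.58) and the highest Grm4 value, and the lowest value at both Grm2 probes.

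C57BL/6J replicate 3 was the lowest of the 6 arrays for both Grm2 probes and the highest for Grm4, alongside its striatal marker deviation of 2.58 and its excitatory marker deviation of -0.57. The log2 of the summed signal of the 17 striatal probes (12 genes) lay between 5.01 and 6.40 in the BTBR mice and between 5.57 and 8.15 in the C57BL/6J mice. Grm5 in that mouse stood at 3.46, beside 3.47 in BTBR replicate 2, whose striatal deviation of 0.60 was the second highest. The part of the striatal and excitatory markers in these results was not tested.

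Scaffold transcripts showed no probe past the test (0 of 25, 3 at an unadjusted p under 0.05), and the 95% interval of each of the 25 lay inside a 2-fold difference. The median was 0.12, with 17 of 25 means higher in BTBR. The medians of the families were 0.13 for Dlg (10 probes), -0.023 for Dlgap (8), 0.20 for Homer (4) and 0.25 for Shank (3).

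The Dlg proteins are the membrane-associated guanylate kinases that bind NMDA receptor tails. Dlg4, the most familiar of them at mature excitatory synapses, differed by 0.015 and -0.096 at its 2 probes (adjusted p = 0.984 and 0.869). Dlg1 had 4 probes between 0.038 and 0.29, and Dlg3 differed by 0.12 (adjusted p = 0.695). Dlg2 probe A_51_P297185 read -1.65, -1.94 and -2.03 in BTBR mice and -2.39, -2.34 and -2.12 in C57BL/6J mice, without overlap, and was described after its values were seen. The difference of 0.41 ± 0.14 (SE; interval 0.07 to 0.76) did not pass (adjusted p = 0.212), and the other measured Dlg2 probes differed by -0.069 and 0.14.

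Dlgap proteins link the Dlg layer to Shank, and their family median was near 0. Dlgap3, whose loss in mice causes excessive grooming, read 6.24, 6.02 and 6.25 in BTBR mice and 6.32, 6.32 and 6.35 in C57BL/6J mice. The values did not overlap, yet the difference was only -0.16 ± 0.11 (SE; interval -0.42 to 0.10; adjusted p = 0.564). Dlgap4 read 5.34, 5.50 and 5.25 in BTBR mice and 5.76, 5.67 and 5.30 in C57BL/6J mice at its brighter probe, a difference of -0.21 ± 0.16 (SE; interval -0.59 to 0.16; adjusted p = 0.594). Its second probe differed by -0.25 (adjusted p = 0.443). Dlgap1 probes lay between -0.22 and 0.24, and Dlgap2 probes at 0.13 and 0.17.

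Shank proteins form the deep layer of the postsynaptic density and Homer proteins connect it to group I metabotropic receptors. Each Shank gene had 1 probe, and Shank2 and Shank3 were described after their values were seen. Shank3, a gene linked to autism in people, read 3.55, 3.23 and 3.64 in BTBR mice and 3.01, 3.04 and 3.25 in C57BL/6J mice, overlapping through BTBR replicate 2 and C57BL/6J replicate 3. The difference was 0.37 ± 0.15 (SE; interval 0.02 to 0.72; adjusted p = 0.274), or 1.29-fold.

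Shank2 read -3.37, -3.83 and -3.56 in BTBR mice and -3.06, -3.00 and -3.36 in C57BL/6J mice. Here the BTBR values were the lower ones and the groups just missed each other, with a difference of -0.44 ± 0.16 (SE; interval -0.84 to -0.05; adjusted p = 0.242). Shank1 differed by 0.25 (adjusted p = 0.547). Homer2 had 3 probes between 0.12 and 0.37, and Homer3 differed by -0.28 (adjusted p = 0.383). The difference of Shank2 and that of Shank3 thus had opposite signs, each the same in both slides, and neither passed the test.

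Genes around the receptors were counted in 7 lists from the same fit. Other family members on the array gave 0 of 13 probes past the test, against 5.45% of all probes. At an unadjusted p under 0.05 there were 4 of 13 (30.8%), against 16.7% of all probes. These came from only 2 genes, with Homer1 probes at 0.48, 0.51 and 1.17 and the Grin3b probe in the other direction at -0.87. Counts of 0 also came from trafficking adaptors (30 probes, 3 or 10% unadjusted) and postsynaptic signalling enzymes (49 probes, 1 or 2.04% unadjusted). The same held for metabotropic receptor signalling (29 probes, 0 unadjusted) and for glutamate transport and synthesis (26 probes, 5 or 19.2% unadjusted). The list medians ran between -0.072 for metabotropic signalling and 0.22 for the family members, against 0.037 over all probes.

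Auxiliary subunits of ionotropic receptors had 1 of 24 probes past the test, against 5.45% of all probes. Cacng7, a transmembrane AMPA receptor regulatory protein, was higher in BTBR at its only probe (chromosome 7, probe A_51_P327675). It read -0.10, -0.18 and -0.08 in BTBR mice and -1.19, -1.22 and -0.89 in C57BL/6J mice. The groups were far apart, with a log2 fold change of 0.98 ± 0.13 (SE; 95% interval 0.68 to 1.29; limma adjusted p = 0.00766), or 1.97-fold. With normexp correction the difference was 0.86 and the call was lost (adjusted p = 0.105), while 20 of 21 alternative settings kept it.

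Synaptic adhesion genes had 1 of 29 probes past the test, against 5.45% of all probes. That probe entered the fit through the C57BL/6J arrays alone. Lrrtm4, a leucine-rich postsynaptic adhesion protein that organises excitatory synapses, was lower in BTBR by probe A_52_P424206 (chromosome 6). This probe read -7.51, -7.97 and -8.89 in BTBR mice and -0.92, -1.37 and -1.40 in C57BL/6J mice, and it was not well above background on any BTBR array. On the processed signal the fitted log2 fold change was -6.89 (limma adjusted p = 0.000187). Each BTBR reading was then raised, where it was lower, to the dimmest signal that counted as well above background on that array. With these raised readings the probe was 38.1-fold lower in BTBR. That figure is not a lower limit, because the size depended on the processing. The log2 fold change with normexp correction was -2.84 (limma adjusted p = 0.0247), and over 20 alternative settings it lay between -7.20 and -1.79. The second Lrrtm4 probe (A_51_P123892) went the other way, with -5.34, -4.69 and -5.73 in BTBR mice and -6.53, -6.55 and -6.13 in C57BL/6J mice. Its difference of 1.15 ± 0.28 (SE; adjusted p = 0.0755) did not pass, and with normexp correction it was -0.091, so the gene's probes did not give 1 direction.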

How the data were processed

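RNA of 6 mice (3 BTBR, 3 C57BL/6J; 0.5 µg per array, integrity number 9, per the labels' protocols) was measured on Agilent arrays with 1 colour. The scanner files, as deposited, give spot intensity on a linear scale with the software's own background subtraction. Their headers name Agilent Feature Extraction 10.7.3.1, whereas version 9.1 stands in the submitters' processing notes. The authors' deposited matrix of log2 values states no scaling and served only as an alternative. The 75th percentile of each array, taken over non-control spots, was subtracted from the processed signal on the log2 scale. Spots of a probe were averaged, and outlier-flagged spots were dropped where others remained. A probe entered the fit if 3 or more of the 6 arrays flagged it as well above background (30011 probes). No entered member probe was saturated (0). The fit used limma 3.58.1 (lmFit and eBayes) under R 4.3.3, with version 1.17.8 of the data.table package for reading, as a BTBR minus C57BL/6J contrast. Adjusted p-values are Benjamini-Hochberg values over all entered probes, called at 0.05. The labels give 3 mice per group, and their number limits the precision.

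Members were matched by the array's own gene symbols. Positions are on mm9, per the file headers, and names were checked against RefSeq (GRCm38.p6, names only). Probe sequences come from the scanner files. Members and lists were chosen with earlier results of these data known. Described with every mouse were members past the test, the 2 genes with the brightest probe per group, genes whose probes differed by 1 or more, and the probes nearest the threshold, with list genes past the test and a few others named as chosen later. Alternatives covered background correction, scaling, filters, spots kept, probe summaries, the authors' values, the prior, array weights, slide, replicate block, a 2-fold threshold and left-out mice. The fit was tested on simulated data.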

Additional observations from a re-analysis of the deposited data

How the results depend on the processing

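Of the member results, 0 probes past the test held under 16 of 22 alternatives for all members and for the metabotropic receptors, and under all alternatives run for the AMPA, kainate, NMDA, delta and scaffold groups. The exceptions gave 1 probe with the authors' values (Grm3, adjusted p = 0.0400), with a trended and robust prior (Grm3, 0.0260), with array weights (Grm3, 0.0197), on slide 1 alone (Grm2 A_51_P494725, 0.0102) and without C57BL/6J replicate 3 and BTBR replicate 2 together (the same Grm2 probe, 0.0144). Leaving out 1 mouse at a time gave 0 to 2 member probes, 2 of them without C57BL/6J replicate 3. The causes were not tested. Over all probes the count of 1635 became 167 with normexp correction, 931 with the replicate block, 1028 without C57BL/6J replicate 3 and BTBR replicate 2, 978 with an added 2-fold threshold, and 859 to 1470 with 1 mouse left out. The pathway lists had 2 probes past the test and 1 with normexp correction, where Cacng7 lost its call. The member median of 0.13 was -0.018 with normexp correction, 0.050 with the authors' values and 0.086 to 0.19 with 1 mouse left out. No called value changed sign. Over the described probes and settings, uncalled differences changed sign 18 times, at 7 probes, and 3 of these came from summaries per gene that put another probe or a mean of probes in place of the Grm2 or Dlg2 probe. Same-numbered mice deviated from their strain means with correlations of 0.028, -0.17 and -0.079, so the numbers were not taken to pair them, and with the replicate block no member call changed. Smaller differences than the intervals given are beyond what 3 mice per strain resolve.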

Other observations

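Among genes around the receptors, a few differences that did not pass the test were chosen after their values were seen. At some of these probes the strains did not overlap, as was the case at 22.9% of all probes. Arc, an activity-induced gene whose product drives AMPA receptor endocytosis, read 5.88, 5.57 and 5.78 in BTBR mice and 4.47, 5.02 and 5.19 in C57BL/6J mice (difference 0.85 ± 0.21 SE, limma adjusted p = 0.0772). Homer1, whose short form is also induced by activity, had 4 probes that differed by 0.042, 0.48, 0.51 and 1.17, with limma adjusted p-values between 0.126 and 0.921. The strains overlapped at the Homer1 probes with 0.042 and 0.48 and did not at those with 0.51 and 1.17. The Homer1 probe with the largest difference (A_52_P37991) read 0.58, 1.24 and 0.91 in BTBR mice and -0.61, -0.64 and 0.47 in C57BL/6J mice.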
